A study of Mus musculus with 4 samples.

Results

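Of 10791 gene symbols listed for mouse heart, 885 (8.2%) were not listed for the tibialis anterior (TA), a fast muscle of the lower leg, and these 885 heart-only genes are described here. The RNA came from C57BL/6J males aged 10 weeks, given no treatment that the labels name, and was read both as total RNA and as ribosome-protected fragments (RPF), the stretches of mRNA left after nuclease digestion because a ribosome covers them. Each tissue gave 1 RPF and 1 RNA library, so the 4 libraries had no replicates and allowed no test. Levels are given in RPM, read numbers put on a common library size, and the heart libraries held about 28120000 coding RPF reads and 9290000 coding RNA reads, those of TA 28520000 and 16050000. Intervals are at 95% and cover counting error only, as no group had a second library. Reads copied by PCR are not independent molecules, and the intervals leave that out too.

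The heart-only genes were chosen by their listing, which rests on the measured reads: a gene had a row in the heart table and none in the TA table. Their presence in heart is therefore no finding, and an unlisted gene is not a gene at 0. The lowest summed RNA of any gene over its coding sequence and both untranslated regions (UTRs) was 2.24 RPM (21 reads) in the heart table and 1.3 RPM (21 reads) in the TA table, and the lowest summed RPF was 0.74 RPM (21 reads) and 0.66 RPM (19 reads). These are the lowest values seen, not a rule that the sources used here state.

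Heart muscle and fast limb muscle share most of their contractile and metabolic machinery but use different members of many gene families. Heart muscle cells beat throughout life under pacemaker and autonomic control, release calcium through their own ryanodine receptor, secrete natriuretic peptides and are joined end to end by desmosomes. The heart also holds cells that limb muscle has in other proportions or lacks, among them the mesothelial cells of the epicardium, resident macrophages and the lining of its chambers. In whole tissue, fewer cells of a type and less RNA per cell cannot be told apart.

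Known heart genes stood on both sides of the listing. Among the heart-only genes were Myh6 (alpha myosin heavy chain, the main motor of the adult mouse ventricle), Ryr2 (the cardiac calcium release channel), Nppa and Nppb (atrial and brain natriuretic peptides), and the transcription factors Gata4 and Nkx2-5. The cardiac troponins Tnni3 and Tnnt2 were not among them: they had 4118.93 and 4916.93 RPM of coding RNA in heart and were still listed for TA, at 2.36 and 3.29 RPM. None of 16 heart-listed skeletal fibre genes was heart-only. Myh6 and Myh7, the beta heavy chain, are near-identical, Myh7 was listed for neither tissue, and the handling of reads that match both is not stated in the sources used here.

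The natriuretic pair illustrates what a few of these genes share in sequence. Nppb and Nppa are neighbours on chromosome 4, and both were heart-only. Stretches of 130 bases that end at the annotated start of each gene are printed from RefSeq (GRCm38.p6, + strand, 5′ to 3′), together with that of Lrrc10, a heart muscle protein of the Z disc region. They lie at chr4:148000592-148000721 (Nppa), chr4:147985770-147985899 (Nppb) and chr10:117045211-117045340 (Lrrc10). All 3 were chosen after the letters TATAAA had been found in them. Capitals mark TATAAA, the core of a TATA box, and the GATA-type letters that GATA factors are known to bind, AGATAA with its variant ending in G (AGATAG) and TGATAA with its variant ending in G (TGATAG), all searched on both strands.
Nppa: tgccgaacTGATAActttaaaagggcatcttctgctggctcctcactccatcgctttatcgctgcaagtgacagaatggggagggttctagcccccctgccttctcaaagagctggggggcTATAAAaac
Nppb: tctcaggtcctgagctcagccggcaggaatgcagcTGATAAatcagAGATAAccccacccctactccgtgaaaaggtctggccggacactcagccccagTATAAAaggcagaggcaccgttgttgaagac
Lrrc10: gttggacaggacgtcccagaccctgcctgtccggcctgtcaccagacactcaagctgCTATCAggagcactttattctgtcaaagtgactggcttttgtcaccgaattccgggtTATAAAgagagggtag

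In Nppb the TATAAA began at position -31 from the annotated start, with GATA-type letters at -95 and -84. In Nppa TATAAA began at -9 and TGATAA at -122, and in Lrrc10 TATAAA began at -16 and TGATAG, on the other strand, at -73. Over the whole window of RefSeq promoters, 250 bases before to 50 after the start, 608 of the 885 genes could be matched by symbol. TATAAA on either strand was in 11.3% of these 608, in 8.76% of 7262 promoters of genes listed in both tissues and in 15.7% of all 27025 promoters. The 4 GATA-type words were in 27.8%, 20.8% and 33%, and GGCGGG, the core of a GC box, in 59.4%, 70.4% and 37.9%. For each of the 3 searches the heart-only genes lay between the genes listed in both and all promoters. A match of letters is a description and not a shown binding site.

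Most heart-only genes were scarce in heart. Their median coding RNA was 3.42 RPM (quartiles 2.03 and 8.24) and their median coding RPF 2.3 RPM (1.24 and 5.74), against 21.19 and 14.63 RPM over all heart genes. Per kb of coding sequence the medians were 2.638 RPM of RNA and 1.762 RPM of RPF, against 14.77 and 9.693. Over all levels together coding length did not set them apart, with a median of 1404 nt against 1422 nt. At similar RNA levels from 1 RPM up they were longer than genes listed in both. The medians were 1437 and 1056 nt from 2 to below 5 RPM, 1632 and 1156 nt from 5 to below 10 RPM, and 1551 and 1416 nt from 10 to below 50 RPM. The share of heart-only genes followed the level: 50.5% of genes under 1 RPM of heart coding RNA were heart-only, 28.4% of those from 2 to below 5 RPM, and 2% of those at 50 RPM or more. The 351 genes from 2 to below 5 RPM alone were 39.7% of the set.

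**Figure D1:**
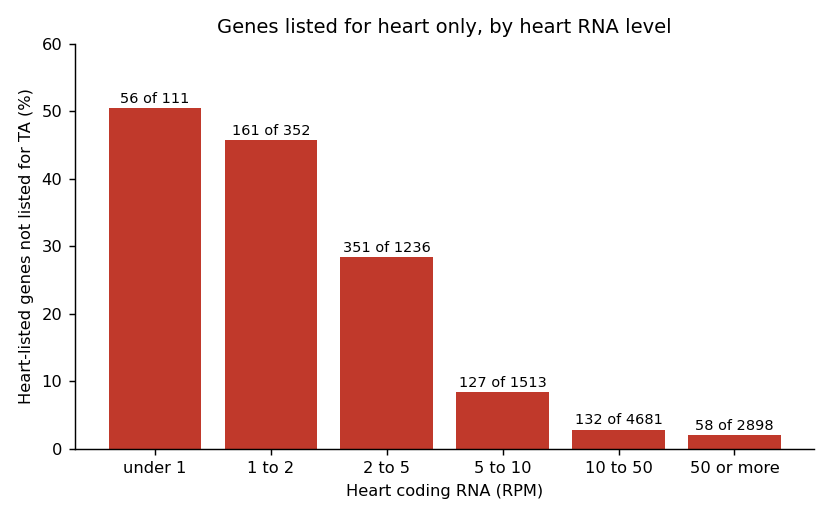
Bars give the percent of heart-listed genes that were not listed for TA, by class of heart coding RNA in RPM, with the numbers of genes above each bar. The share falls from 50.5% under 1 RPM to 2% at 50 RPM or more, and 58 heart-only genes lie in the highest class.

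Genes just inside the listing show how close to the edge many of these genes were. Ccdc114 had a summed heart RNA of 2.24 RPM, and Shank1, 2010300C02Rik and Aass 2.25 RPM, with summed RPF from 1.14 to 4.18 RPM. In all, 327 heart-only genes (36.9%) were within 2-fold of the lowest summed RNA listed for heart, against 330 of 9906 genes listed in both (3.33%). Just outside the set, Adamts7 (a secreted protease) and Alox5 (arachidonate lipoxygenase) were each listed for TA with a summed RNA of 1.3 RPM, while their heart coding RNA was 57.15 and 21.51 RPM. At the other end, 171 heart-only genes (19.3%) had both summed RNA and summed RPF in heart at 10 or more times the lowest listed in TA, and 22 (2.49%) had both at 100 or more times.

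A few muscle genes held most of the reads. The 885 genes carried 8.5% of heart coding RNA (Wilson interval 8.48 to 8.52) and 10.7% of coding RPF (10.7 to 10.8). Myh6 alone held 6.12% of the RNA and 9.09% of the RPF, and without it the shares were 2.39% and 1.65%. Without Myh6 and Ryr2 they were 1.38% and 1.26%. The 16 most abundant of the genes made up 90% of the set's RNA. The 446 genes listed for TA and not for heart, a set that Myh4 leads, held 15% of TA coding RNA and 18.1% of TA coding RPF.

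Translational efficiency is given as log2 of RPF over RNA, each with 0.1 RPM added, with the median of all heart genes at 1 RPM of RNA or more set to 0. A value of 1 is 2-fold above that median. Of all 10680 heart genes at that level, 16.0% lay 2-fold or more above it and 17.8% lay 2-fold or more below. Every listed gene had both RNA and RPF reads, at or above the lowest sums given earlier, so efficiency is not taken as independent of how the genes were chosen, and levels and efficiencies below are descriptions.

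Contractile genes and myosins came first. Myh6 had 60773.14 RPM of coding RNA and 90515.13 RPM of RPF in heart, the highest RPF of any heart gene, and an efficiency of 1.01 (interval 1.01 to 1.02). Mylk3, the kinase that phosphorylates the regulatory light chain in heart, had 1037.31 RPM of RNA and 705.13 RPM of RPF, an efficiency of -0.12. Tnni3k, a heart kinase that binds troponin I, had 236.10 and 162.71 RPM, at -0.10. These kinases were thus read by ribosomes close to the heart median, and Myh6 about 2-fold above it.

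Other members of this group were lower in efficiency. Myh7b, an ancient sarcomeric myosin whose transcript is known to hold a microRNA, had 149.52 RPM of RNA and 51.65 RPM of RPF, at -1.09 (-1.20 to -0.99). Nebl (nebulette, of the Z disc) was at -0.75 with 59.40 RPM of RNA, and Myocd (myocardin, a coactivator of muscle genes) at -0.77 with 85.84 RPM. Lrrc10, shown above by its promoter, had 79.74 RPM of RNA and 143.54 RPM of RPF, at 1.29. The 6 heart-only genes of the sarcomere list had a median of -0.43, and 1 was at least 2-fold above and 1 at least 2-fold below the heart median. Its 28 genes listed in both had a median of 0.45, with 8 above and 3 below. With the trend on coding length removed the heart-only median was -0.05. Myocd is on this list and also on that of cardiac transcription factors.

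None of the 9 listed myosin heavy chains was listed in both tissues, where over all 11237 symbols 9906 were in both, 885 were heart-only and 446 were listed only for TA. Myh6, Myh7b, Myh9, Myh10, Myh11 and Myh14 were heart-only, and Myh1, Myh2 and Myh4 were listed only for TA. The family was chosen after its values were seen. Myh9, Myh10 and Myh14 are nonmuscle motors present in most tissues, and Myh11 marks smooth muscle. Their heart coding RNA was 288.12, 47.20, 162.68 and 84.66 RPM, and their efficiencies ran from -0.01 to 0.59. No value in TA is known for them.

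Myosin light chain kinases and ryanodine receptors had members on each side of the listing. Of 4 light chain kinases, Mylk3 was heart-only, Mylk2 and Mylk4 were listed only for TA at 1046.08 and 664.26 RPM of coding RNA there, and Mylk was listed in both, at 54.90 RPM in heart and 42.98 RPM in TA. Heart-only Ryr2, at 9993.54 RPM in heart, stood beside Ryr1, the skeletal channel, at 10124.19 RPM in TA only. The scarce Ryr3 was also heart-only, at 2.57 RPM. Of 4 alpha-actinins, Actn1 was heart-only (31.89 RPM of RNA, efficiency 1.52), Actn3 was listed only for TA, and Actn2 and Actn4 were in both.

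Secreted and natriuretic genes had efficiencies near or moderately above the median. Corin, the heart protease that activates pro-atrial natriuretic peptide, had 433.35 RPM of coding RNA and 433.11 RPM of RPF, at 0.44 (0.39 to 0.49). Its substrate's gene Nppa had 62.61 and 74.00 RPM, at 0.68, and Nppb 57.58 and 58.59 RPM, at 0.46. Per kb, Nppb (159.9 RPM of RNA) and Nppa (138.2) were close to Corin (129.9). All 3 natriuretic receptor genes listed, Npr1, Npr2 and Npr3, were listed in both tissues.

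Fgf16, a growth factor of heart muscle, had 12.52 RPM of coding RNA and an efficiency of 0.69, and Erbb4, the neuregulin receptor, 28.36 RPM and -0.07. Ltbp2, a matrix protein that resembles the binders of latent TGF-beta, was the highest of this list at 2 RPM or more, at 0.82 with 3.64 RPM. Of 25 natriuretic and secreted heart factors listed for heart, 7 were heart-only, where 8.2% of all heart genes were. At 1 RPM or more, 6 of them had a median efficiency of 0.57, and none was 2-fold above or below the heart median. Of the 18 genes of this list in both tissues, 4 were above and 1 below. Ptgds, the prostaglandin D synthase secreted by several tissues, was at 178.95 RPM of RNA and 758.59 RPM of RPF, an efficiency of 2.52 (2.45 to 2.60).

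**Figure D2:**
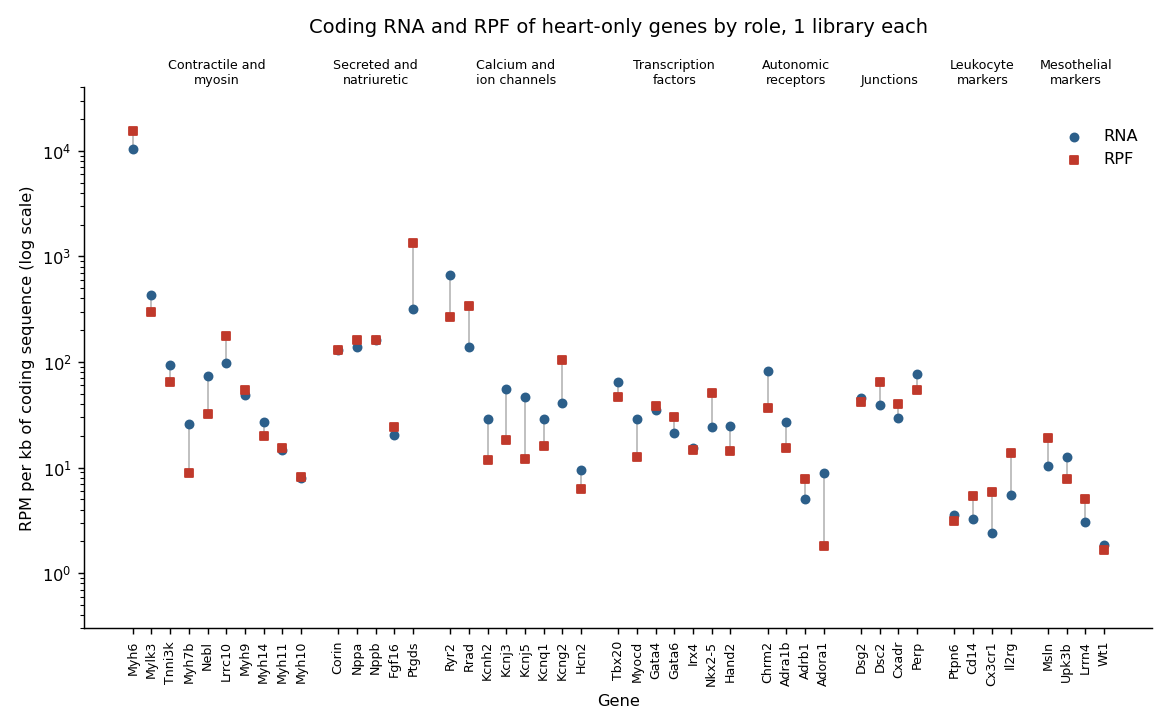
Each gene's coding RNA (circles) and coding RPF (squares) in heart, in RPM per kb of coding sequence on a log scale, grouped by role, with a line joining the 2 libraries. Myh6 (10458 RPM of RNA per kb) and Ryr2 (670.9) lead the muscle genes, most ion channels have less RPF than RNA, as the median heart gene does, and the leukocyte and mesothelial markers shown lie below 20 RPM per kb.

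The calcium handling and conduction list was the largest cardiac list, with 15 of 43 listed genes heart-only, where 8.2% of all heart genes were. Of ion channel families by name, 25 of 99 were heart-only. Ryr2 had 9993.54 RPM of coding RNA and 3968.95 RPM of RPF, an efficiency of -0.89 (-0.90 to -0.88). Its ratio of RPF to RNA was 0.539 of the heart median ratio.

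The heart-only repolarising potassium channels named here lay below the heart median, at which RPF was 0.737 of RNA, some of them by little. Kcnh2 (the hERG channel) had 99.75 and 40.77 RPM, at -0.85, and Kcnq1 (slow delayed rectifier) 57.37 and 31.88 RPM, at -0.41. Kcnj3 and Kcnj5, which together form the channel opened by acetylcholine, were at -1.17 and -1.51, with 83.16 and 58.12 RPM of RNA. Kcnd2 and Kcnd3, of the transient outward current, were at -0.66 and -0.35. The pacemaker channel gene Hcn2 had 24.62 RPM of RNA, at -0.16. Kcnk3, a background potassium channel of the same list, lay above the heart median ratio, with 54.9 RPM of RNA and 50.45 RPM of RPF.

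Other genes of channels and conduction lay on both sides of the heart median. Kcng2, a modifier subunit of potassium channels, had 58.44 RPM of RNA and 150.34 RPM of RPF, at 1.80 (1.67 to 1.93), while Kcnv2, another modifier subunit, had 12.84 and 0.43 RPM, at -4.17 (-5.47 to -3.62). Rrad, a small GTPase that restrains calcium channels, had 128.11 and 312.13 RPM, at 1.72. Cntn2, an adhesion protein known from the conduction system, was the highest of the calcium and conduction list at 1.95 with 4.50 RPM of RNA. This list's 15 heart-only genes had a median of -0.35, with 4 at least 2-fold above and 2 at least 2-fold below. Its 28 genes listed in both had a median of 0.25, with 8 above and 5 below. With the trend on coding length removed the heart-only median was 0.04.

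Of 32 cardiac transcription factors listed for heart, 14 were heart-only, where 8.2% of all heart genes were. The median coding RNA of these 14, 20.18 RPM, was close to that of all heart genes (21.19). Tbx20, a T-box factor, had 86.37 RPM of coding RNA and 62.14 RPM of RPF, at -0.03. Gata4 had 46.34 and 50.94 RPM, at 0.58, and Gata6 37.78 and 52.64 RPM, at 0.92. Nkx2-5, the homeobox factor of the cardiac lineage, had 23.01 and 48.74 RPM, at 1.52 (1.31 to 1.74), and so stood 2.87-fold above the heart median.

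Iroquois, GATA and Meis factors were mostly heart-only, and none was listed only for TA. Irx1, Irx2, Irx4 and Irx5 of 5 Iroquois factors were heart-only, with 3.64 to 23.87 RPM of RNA, as were all 3 Meis factors and 2 of 3 GATA factors. Irx1, Irx2 and Irx4 are consecutive among protein-coding genes on chromosome 13. Of 5 T-box factors, Tbx20 was heart-only, Tbx1 and Tbx15 were listed only for TA, and Tbx2 and Tbx3 were in both. The median efficiency of the 14 heart-only factors was 0.18 with 2 at least 2-fold above and 0 below. The 18 factors of the list in both had a median of 1.22, with 10 above and 1 below.

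Receptors and signalling genes of autonomic nerves and hormones were mixed in level and efficiency, with a median coding RNA of 8.935 RPM over the 10 heart-only genes of the list. Chrm2, the muscarinic receptor through which the vagus slows the heart, had 115.70 RPM of coding RNA and 50.66 RPM of RPF, at -0.75. Adra1b, an alpha-1 adrenergic receptor, had 41.63 and 23.73 RPM, at -0.37. Adrb1, the main cardiac beta receptor, had 6.96 and 10.95 RPM, at 1.09. Adora1, an adenosine receptor that slows nodal conduction, was at -1.79 (8.67 and 1.77 RPM), and Rgs6, which shortens muscarinic signals, at -1.53 (19.59 and 4.92 RPM). Of the 10 heart-only genes on this list, 2 were at least 2-fold above and 4 at least 2-fold below, with a median of -0.64. The 26 in both with enough RNA had a median of -0.41, with 1 above and 8 below.

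Over all G protein coupled receptors 31 of 99 were heart-only, and 10 of the 30 with 1 RPM or more were at least 2-fold below the heart median, beside 14 of 66 listed in both. The 31 had a median coding RNA of 3.42 RPM, and 28.4% of all heart genes from 2 to below 5 RPM were heart-only. Gpr22, an orphan receptor of heart and brain, had 79.52 RPM of coding RNA but 9.46 RPM of RPF, at -2.62 (-2.84 to -2.43). C5ar1, the complement receptor of myeloid cells, was highest at 2.05 with 2.89 RPM of RNA. Lgr6, a receptor for R-spondins, was at 0.57 with 60.79 RPM.

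Junction proteins lay near or above the heart median, apart from the nectin Pvrl2 at -0.74. Dsg2 and Dsc2, the desmosomal cadherins of heart muscle, had 152.19 and 99.64 RPM of coding RNA and 139.82 and 162.92 RPM of RPF, at 0.32 and 1.15. No other desmoglein or desmocollin was listed in either tissue. Cxadr, the coxsackievirus and adenovirus receptor of the intercalated disc, was at 0.85 with 32.43 RPM, and Perp, a desmosomal membrane protein, at -0.08 with 44.52 RPM. Among 23 heart-only adhesion proteins 8 were at least 2-fold above and 4 at least 2-fold below, with a median of 0.32. The 85 in both had a median of 0.18, with 15 above and 12 below. At 5 RPM or more, with the median of all such heart genes set to 0, the heart-only median was -0.39.

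Several abundant members are expressed in most tissues. Pygb, the brain form of glycogen phosphorylase, had 1166.59 RPM of coding RNA and 1592.71 RPM of RPF, at 0.89. Per kb its RNA was 461.8 RPM, beside 736.2 for the muscle form Pygm, which was listed in both. Cox7c, a subunit of cytochrome oxidase, had 344.41 and 576.97 RPM, at 1.18, and was the only heart-only gene of 85 oxidative phosphorylation subunits. Rps26 (77.06 RPM) was the only one of 78 ribosomal proteins. Pgam1, a glycolytic enzyme, had 40.56 and 175.18 RPM, at 2.55 (2.40 to 2.71).

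Most cells need a full ribosome and respiratory chain, so a missing TA row is not evidence of absence there. Cox7c, Rps26, Pgam1, the histone gene Hist1h4h (50.62 RPM) and Acot2 (131.86 RPM) all have close copies or pseudogenes elsewhere in the genome, so their values are uncertain. The part that reads matching several places played in the listing was not tested. Slc25a13, the mitochondrial aspartate-glutamate carrier, had 212.88 RPM and an efficiency of 0.28, and Ndrg4, a heart and brain protein, 200.68 RPM and 1.19.

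Enzyme and transporter families followed at lower levels. Of 262 solute carriers and ABC transporters, 32 (12.2%) were heart-only, beside 8.2% of all heart genes, with Slc25a13 the most abundant. At 2 RPM or more, efficiencies in this list ran from -2.27 (Slc16a4, of the monocarboxylate carrier family) to 1.73 (Slc7a1, a cationic amino acid transporter). Their median was -0.35 beside -0.19 for those listed in both, and 0.06 when only genes of 5 RPM or more were counted and centred. Of 29 kinases and phosphatases 27 had enough RNA, with a median of -0.10 beside -0.16 (0.16 with the trend on coding length removed). The 11 heart-only genes of drug and aldehyde metabolism had a median of 0.36 beside 0.39, with 3 at least 2-fold above and 0 below. Of the 110 in both, 28 were above and 7 below. Among the heart-only genes Acot2, a mitochondrial thioesterase, was at 1.30 and Aldh1b1 at 1.39.

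Zinc finger proteins had the lowest median efficiency of these lists. At 1 RPM or more, 15 of 28 heart-only members were at least 2-fold below the heart median and 1 was 2-fold above. Zfp943 had 43.45 RPM of coding RNA and 4.82 RPM of RPF, at -2.71, and Zfp52 30.82 and 2.52 RPM, at -3.12 (-3.57 to -2.80). Zfp40 was the exception at 1.86 (10.49 and 28.23 RPM). The median of -1.02 lay beside -0.93 for the 296 zinc finger genes listed in both, of which 145 were at least 2-fold below.

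Markers of other cell types were present at low levels, where heart genes of any kind were often heart-only (28.4% of those from 2 to below 5 RPM). The heart-only shares of the marker lists below were not matched for level. Of 73 myeloid markers listed for heart, 27 were heart-only, with 1.07 to 6.42 RPM of coding RNA, among them Ptpn6 (a phosphatase of blood cells), Cd14 (the endotoxin coreceptor) and Cx3cr1 (the fractalkine receptor of resident macrophages). Another 69 symbols of the myeloid list had no heart row, among them Spi1, Itgax and Trem2. The 37 heart-only genes of leukocyte surface and signalling families ranged from 1.07 to 7.92 RPM. Summed over all listed myeloid markers, coding RNA was 1013 RPM in heart and 236 in TA. Of T, B and NK cell markers 6 were listed for heart, 4 of them heart-only, while the T cell genes Cd3d, Cd3e and Cd3g and the B cell gene Cd79a were not listed.

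Mesothelial markers were another such group, with 11 of 26 heart-only. Msln (mesothelin) had 19.16 RPM of coding RNA and 36.03 RPM of RPF, Upk3b (a uroplakin) 10.38 and 6.48 RPM, and Wt1 (a factor of the epicardium) 2.89 and 2.55 RPM. The mesothelial markers Krt7, Krt8, Krt19, Muc16 and Tbx18 had no row for heart. The list summed to 711.1 RPM in heart and 478.4 in TA. Its 11 heart-only genes had a median efficiency of 0.82 with 5 at least 2-fold above and 0 below. The 15 in both were close to this, at 0.79 with 6 above and 0 below.

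Red cell and platelet markers differed more between the tissues. The list summed to 12816 RPM of coding RNA in heart and 789.3 in TA, of which the globin Hbb-b1, listed in both, made up most. Its 6 heart-only genes included Slc4a1 (the red cell anion exchanger, 14.45 and 3.19 RPM, efficiency -1.71), and their median was -0.87. Endothelial and fibroblast lists were mostly shared, with 5 of 71 and 5 of 65 heart-only, near the 8.2% of all heart genes. Of 3 lung and 2 thymus markers listed for heart, 0 were heart-only. The part of blood and immune cells in the listing of any other gene was not tested.

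Cell division genes were the most often heart-only of the lists with 10 or more genes: 25 of 52 listed for heart, most of them under 5 RPM of coding RNA. The median of the 25 was 2.78 RPM. Of all heart genes, 45.7% from 1 to below 2 RPM and 28.4% from 2 to below 5 RPM were heart-only. This ranking did not match the lists by level. Cenpf, a kinetochore protein, was the most abundant at 111.20 RPM and 58.42 RPM of RPF (-0.49), and Sgol2, a protector of centromeric cohesion, had 47.95 and 11.62 RPM (-1.60). Top2a, a topoisomerase of dividing cells, had 4.82 RPM. Casc5, another kinetochore gene, had 4.17 RPM of RNA from 39 reads but 50.66 RPM of RPF, an efficiency of 4.01 (3.58 to 4.54), the highest of all heart-only genes at 1 RPM or more. Mki67, Cdk1 and Ccnb1 were not listed.

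Over the whole set, efficiency was spread about as widely as in other heart genes and leaned to the low side. Of 829 heart-only genes with 1 RPM or more of coding RNA, 115 (13.9%) were at least 2-fold above the heart median and 182 (22%) at least 2-fold below. The shares over all heart genes at that level were 16.0% and 17.8%. The heart-only median was -0.07 and that of the 9851 genes listed in both 0.01. The lean depended on how scarce genes were treated: with 1 RPM added in place of 0.1, 14% of heart-only genes and 15.8% of genes in both were at least 2-fold below. With 1 RPM added, no gene of either set under 2 RPM of RNA was called below. From 5 to below 10 RPM 28.3% of heart-only genes still were, against 7.22% of genes in both. At 50 RPM or more the shares were 19% and 24.1%. Intervals were wide for scarce genes: 58 of the 115 and 78 of the 182 had an interval that reached inside the 2-fold bound.

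Compared at similar RNA levels, heart-only genes had lower efficiencies than genes listed in both, except at the highest level. From 2 to below 5 RPM of coding RNA the medians were -0.15 and 0.38, from 5 to below 10 RPM -0.45 and 0.11, and from 10 to below 50 RPM -0.38 and -0.04. At 50 RPM or more they were -0.11 and -0.17. From 5 to below 10 RPM 38.6% of heart-only genes were at least 2-fold below the heart median, against 11.5% of those in both, and from 10 to below 50 RPM 37.1% against 18%. With the trend on coding length removed, the medians from 2 to below 5 RPM were -0.16 and 0.21, and those from 5 to below 10 RPM -0.42 and 0. With 1 RPM added, the medians from 5 to below 10 RPM were -0.34 and 0.11. The listing depends on reads in both kinds of library in a way that is not stated, and its part in this difference was not tested. The 369 TA-only genes with 1 RPM or more of TA coding RNA had a median of 0.15 in TA.

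**Figure D3:**
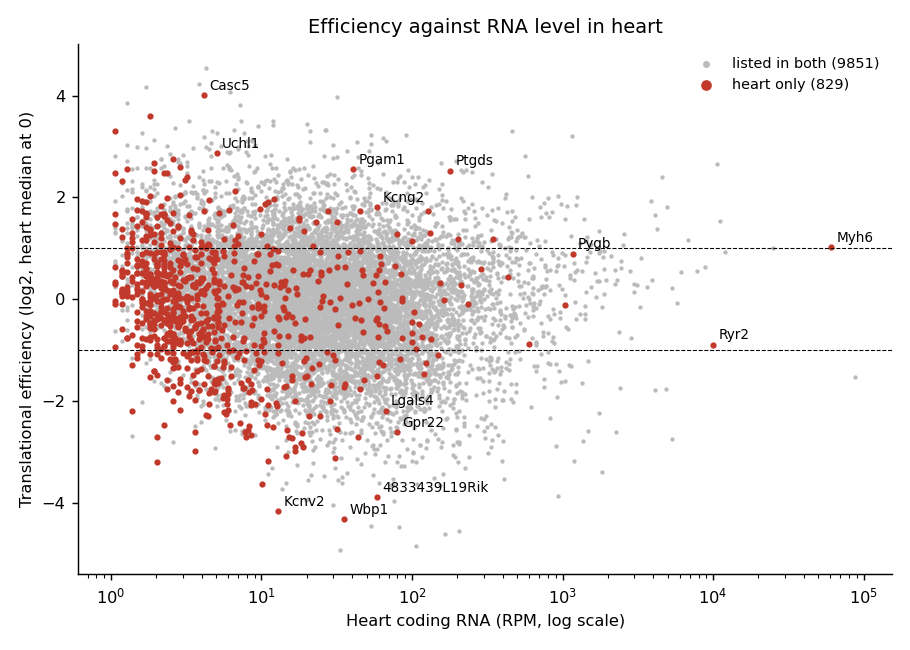
Translational efficiency (log2, heart median at 0) against heart coding RNA (RPM, log scale) for 829 heart-only genes and 9851 genes listed in both tissues, with dashed lines at 2-fold above and below. Heart-only genes crowd at low RNA, where the lowest RPF listed bounds efficiency from below, and named genes reach from Casc5 at 4.01 to Wbp1 at -4.32.

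The highest efficiencies among the 317 heart-only genes at 5 RPM or more were mixed in function. Uchl1, a deubiquitinase abundant in neurons, had 5.03 RPM of coding RNA and 27.38 RPM of RPF, at 2.86 (2.46 to 3.34). Pgam1 and Ptgds followed, then Spint2 (a protease inhibitor, 2.12), Ube2e1 (a ubiquitin conjugating enzyme, 1.97), Emp2 (a membrane protein, 1.91), Zfp40, Kcng2, Rasl11b (a small GTPase, 1.76) and Il2rg (the shared cytokine receptor chain, 1.74). Of the 317 genes 35 were at least 2-fold above the heart median, 27 of them with the whole interval above the bound, beside 14.5% of all 9092 heart genes at 5 RPM or more.

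The lowest were led by Wbp1, which encodes a protein with motifs that bind WW domains and had 35.21 RPM of RNA and 1.20 RPM of RPF, at -4.32 (-4.98 to -3.92). Kcnv2 came next, then 4833439L19Rik, which had 58.65 and 2.83 RPM, at -3.89. Cpn2, a subunit of a plasma carboxypeptidase, was at -3.64, Zfand4 at -3.19, Zfp52 at -3.12 and Zfp948 at -3.09. Traf3, an adaptor of cytokine and antiviral signalling, was at -2.99 with 16.59 and 1.45 RPM, Snx25, a sorting nexin, at -2.91 and 4430402I18Rik at -2.91. Of the 317 genes 108 (34.1%) were at least 2-fold below, 79 of them with the whole interval below the bound, beside 18.8% of 8775 genes listed in both and 19.4% of all heart genes at 5 RPM or more.

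**Figure D4:**
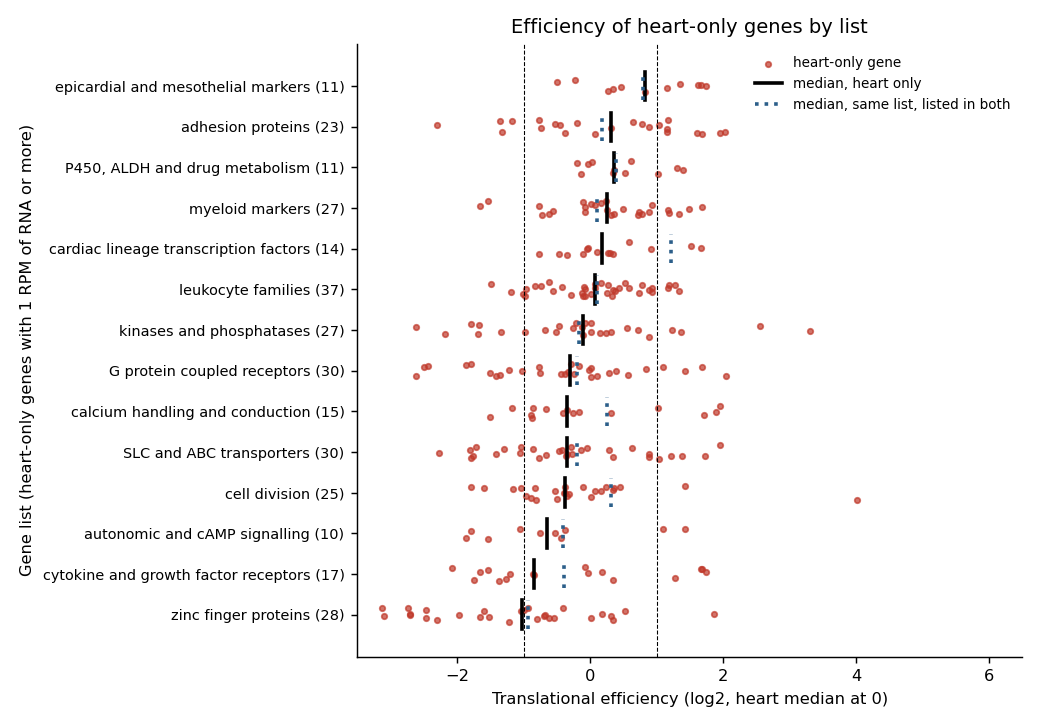
Efficiency (log2, heart median at 0) of each heart-only gene with 1 RPM or more of RNA in 14 lists, with the list's heart-only median as a solid bar and the median of its genes listed in both tissues as a dotted bar. Among these 14 lists zinc finger genes have the lowest median (-1.02) and mesothelial markers the highest (0.82), and the 2 bars are farthest apart for cardiac transcription factors (0.18 and 1.22). Some lists not shown had higher heart-only medians, such as Schwann cell and neuron markers (1.03 over 5 genes).

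Ribosomes on the 5′UTR, which lies before the coding sequence, can be placed there by short upstream reading frames. Of 278 heart-only genes with 5 RPM or more of coding RNA and a 5′UTR of 50 nt or more, 57 (20.5%) had more RPF per nt in the 5′UTR than in the coding sequence, against 16.6% of 7523 genes listed in both. Among those at least 2-fold below the heart median the share was 38.5% (37 of 96) and 36.2%, and among the others 11% and 11.6%. Genes with low coding RPF thus more often had relatively dense 5′UTR RPF in either set. The coding RPF enters both measures, so the 2 are not independent.

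In 12 of the 278 heart-only genes (4.32%) there was at least as much RPF in the 5′UTR as in the coding sequence, against 2.14% of those in both. Hand2, a bHLH factor of the right ventricle, had 16.08 RPM of RPF in its 5′UTR and 9.28 RPM in its coding sequence. Gpr22 had 14.84 and 9.46 RPM, Adora1 2.55 and 1.77 RPM, and 4833439L19Rik 3.29 and 2.83 RPM. Klhdc8a, a kelch-domain protein, had the largest such ratio, with 4.82 and 1.81 RPM. The genes lowest in efficiency went both ways. Wbp1, Kcnv2, Cpn2 and Traf3 had at most 0.32 RPM in the 5′UTR, though the coding RPF of Kcnv2 and Cpn2 was itself only 0.43 and 0.5 RPM. In contrast, 4430402I18Rik had 1.59 RPM in the 5′UTR and 1.56 RPM in the coding sequence, and Zfp948 1.1 and 1.17 RPM. In the 3′UTR, 2 of 308 heart-only genes, Cpn2 and Pot1b, had at least as much RPF as in the coding sequence (0.649%, against 0.29% of 8606 genes listed in both).

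**Figure D5:**
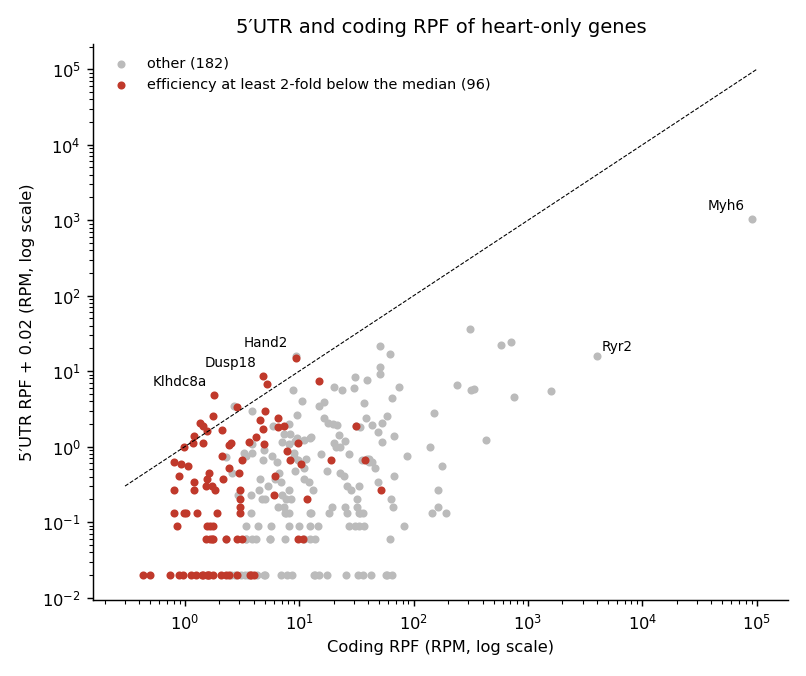
RPF in the 5′UTR (RPM plus 0.02, log scale) against RPF in the coding sequence (RPM, log scale) for 278 heart-only genes with 5 RPM or more of coding RNA and a 5′UTR of 50 nt or more, with a dashed line of equality. Genes at least 2-fold below the heart median in efficiency (96) lie to the left and include 10 of the 12 genes on or above the line.

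Words in the deposited gene descriptions gave the same outline of protein classes. The word precursor, which marks proteins with a cleaved signal, was in 24% of heart-only descriptions and 14.9% of those listed in both. Receptor was in 8.36% and 3.68%, and channel in 2.49% and 0.575%. Kinase (4.86% and 4.97%) and zinc finger (3.84% and 3.69%) were as common in both, and mitochondrial was in 1.13% and 5.02%. These shares were not matched for RNA level, and heart-only genes were scarcer. Heart-only genes described as precursors had a median efficiency of 0.17 beside 0.26 for those in both.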

How the data were processed

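The deposited tables hold 1 row per transcript model, with RPM values (read numbers put on a common library size, as the file headers state) and lengths for the coding sequence and each UTR. Per the labels' protocols, frozen tissue was lysed in cycloheximide, a portion of lysate gave the total RNA libraries after removal of rRNA, and RNase I digestion of what remained, ultracentrifugation and a gel gave the short RPF. Per the submitters' processing notes, Bowtie and mm9 were used. The version of Bowtie, the listing rule and the treatment of multiply matching reads are not stated in the sources used here. The authors' RPM values were not divided by length.

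Rows were matched between tissues by symbol, and a symbol on several rows was represented by its highest row. The step between low values gave the RPM of 1 read: 0.107 in heart RNA and 0.0354 in heart RPF, where 100% of distinct low values lay within 0.005 RPM of whole reads. That tolerance is a sizeable part of the RPF step, so RPF reads are less sure. A count test on the recovered RNA reads could not be fitted, because no group has a second library. Intervals are Wilson for shares and conditional Clopper-Pearson for ratios, at 95%. Efficiency is the log2 ratio of RPF to RNA after adding 0.1 to each, less the heart median of -0.44, where coding RNA reached 1 RPM. It understates ratios of low genes. Calls used a size of 2-fold, with no test.

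The members and the 36 gene lists were chosen with earlier results of these data known. A further 5 lists, the gene families, the description words and the promoter motifs were chosen after values were seen. Named were the 12 heart-only genes with most coding RNA and the 12 with most per kb, the 10 highest and 10 lowest in efficiency at 5 RPM or more, and up to 3 most abundant and the extreme members of each list. Myh6, Ryr2, Nppa, Gata4 and Nkx2-5 were also fixed by name, and all other genes named were chosen after their values were seen. Some genes that this rule names are left out. In the lists 527 of 885 members appear. RefSeq matched 872 members to a gene by transcript accession. Its build (GRCm38.p6) is not mm9, so its coordinates are printed for the promoter sequences alone, and its promoter windows and gene order were otherwise used only for shares of motifs and for which genes are neighbours. Scripts used scipy 1.17.1, pandas 2.3.3, numpy 2.4.6 and matplotlib 3.10.9 under Python 3.11.15 and were tested on simulated data.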

Additional observations from a re-analysis of the deposited data

How the results depend on the processing

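The number of heart-only genes was 885 by symbol, by transcript accession and by gene ID, and 317 at 5 RPM or more of coding RNA. Of the 885, 13 had no match to a gene ID and could not be checked in that way. Another 4 points of doubt are Hist1h4h, Zfp810, Zfp40 and Kif5c, which share a description with a gene listed for TA. The shares of RNA and RPF rested on Myh6: without it they were 2.39% and 1.65%. The median efficiency was -0.07. It was -0.31 with a minimum of 5 RPM, with 38 genes at least 2-fold above and 100 (31.5%, against 22%) at least 2-fold below, the median of all heart genes at 5 RPM being set to 0 there; with the centre kept, the same 317 genes gave 35 and 108. Without centring it was -0.51, with 61 above and 279 below, since that moves all heart genes by -0.44. A pseudocount of 1 left 116 genes at least 2-fold below, against 182. With it the share below was 14% in heart-only genes and 15.8% in genes listed in both, so the order of the 2 sets turned over all levels together. At no level from 2 RPM up did the order turn. The shares were 6.27% and 2.03% from 2 to below 5 RPM, and 28.3% and 7.22% from 5 to below 10 RPM. They were 35.6% and 16.5% from 10 to below 50 RPM, 19% and 24.1% above that, and 0% in both sets under 2 RPM. The cause was not tested. By level, classes chosen after seeing the data gave 0.34 (1 to below 2 RPM), -0.45 (5 to below 10 RPM) and -0.38 (10 to below 50 RPM). A pseudocount of 0.01, no minimum, summed rows, removal of the length trend and, added after seeing the data, leaving out zinc finger genes kept the median between -0.14 and -0.02 and both counts within 1.5 times. Over 28 lists, 193 medians under alternatives stayed within the interval of the main median and 19 did not. For short lists that allowed large moves. Schwann cell and neuron markers went from 1.03 to 1.68 with the length trend removed and still counted as within. Staying within is therefore weak evidence that a list's median is stable, and members of a list are not replicates. Sign changed in 10 of 184 medians (7 of 28 with the length trend removed, 2 of 17 at 5 RPM, 1 of 28 with no minimum) and in 11 of 28 without centring, which lowers each by 0.44. Scarce genes limit precision: the median interval spanned 1.87 on the log2 scale from 1 to below 2 RPM of RNA and 0.60 from 10 to below 50 RPM. No paired analysis was possible because each group had 1 library and the result comes from no test.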

Other observations

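Several genes that are textbook markers of heart chambers had no row in the heart table. Myl7 and Sln, which mark the atria, and Myh7 were listed for neither tissue, and Myl4, another atrial gene, was listed only for TA, at 4.41 RPM of coding RNA and 10.07 RPM of RPF. Tbx5 and Hand1, transcription factors of the developing chambers, had no heart row either. The mirror case in TA was Rpl32, a ribosomal protein listed only there, at 163.58 RPM of coding RNA and 74.64 RPM of RPF, as were Stat5b (238.91 RPM) and Dicer1 (92.91 RPM), which act in most cells. These genes were chosen after their values were seen.

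In some heart-only genes, picked after their values were seen, the 5′UTR held far more RPF than RNA. No share over other heart genes was taken, and the 5′UTR RNA of Acot2, Kcnk3 and Wif1 was 1.61 RPM or less. Acot2 had 119.9 RPM of RPF on a 5′UTR of 41 nt, where RNA was 1.61 RPM, beside 238.7 and 131.9 RPM on its coding sequence. Kcnk3, a background potassium channel, had 9.1 RPM of RPF and 0.21 RPM of RNA on its 5′UTR, and Wif1, a secreted inhibitor of Wnt signals, 3.01 RPM of RPF and RNA listed at 0. Tubb4a, a tubulin with close paralogs, had 1.82 RPM of coding RNA and 17.11 RPM of RPF, an efficiency of 3.60 (2.98 to 4.46). Among neighbouring protein-coding genes that were both listed for heart there were 6637 pairs, and in 53 both were heart-only. Beside a heart-only gene the neighbour was heart-only in 10.3% of cases, against 7.73% over all places in these pairs. The pairs included Nppb with Nppa, Casp1 with Casp4, P2ry13 with P2ry12 and Clec4a1 with Clec4a3, whose members are paralogs.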
